A study of Mus musculus with 8 samples.

Results

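The 31 genes described here encode enzymes of the citric acid cycle, the pyruvate dehydrogenase complex with the kinases and phosphatases that switch it, the mitochondrial pyruvate carrier, pyruvate carboxylase and the malic enzymes. They were chosen by symbol for these roles and not by a measured value, and all 31 were found among the 55401 genes of each deposited table. RNA-seq was performed on AML12 cells, a line derived from hepatocytes of a mouse transgenic for human TGF-alpha, in 4 control dishes and in 4 dishes exposed to Opti-ELF-WMF. This stimulus is an extremely low frequency, very weak magnetic field of 4 ms pulses at 1 to 8 Hz with a peak of 100 mG (10 µT), applied for 1 h. Controls were kept without the field in a separate but like incubator, so that field and incubator cannot be told apart. All dishes came from a single batch of cells of 1 line, and p-values therefore measure the spread between these dishes. Polyadenylated RNA was sequenced from a stranded library in 150 bp paired reads. Of the 31 genes, 30 passed the filter for testing, a level of at least 1 TPM (a length-scaled level) in at least 4 of the 8 dishes, as did 12122 genes in all, and the malic enzyme gene Me3 did not.

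Pyruvate enters mitochondria through a carrier made of MPC1 and MPC2. There the pyruvate dehydrogenase complex oxidizes it to acetyl-CoA, which citrate synthase joins to oxaloacetate, and the cycle then releases the carbon as carbon dioxide and passes electrons to the respiratory chain. PDK kinases switch the complex off by phosphorylating its E1 subunit and PDP phosphatases switch it on again, while pyruvate carboxylase and the malic enzymes fill and drain the cycle. In the liver these reactions also feed gluconeogenesis and lipid synthesis.

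The files gave TPM, a level scaled to transcript length and to a fixed total of 1000000 per dish, so read depth is unknown and levels can be compared between genes. Between 19386 and 20114 genes were above 0 per dish. The hepatocyte markers were all detected (8 of 8 tested, summed level 5417 to 5679 TPM in control and 5770 to 5980 TPM in exposed dishes). Most of this sum was Krt8 and Krt18, at control means of 2248 and 1905 TPM. The others had control means of 823 (Trf), 358 (Ttr), 187 (Hnf4a), 55.1 (Alb), 5.66 (Serpina1a) and 4.54 TPM (Apoa1). Of these 2, Krt8 and Krt18, were higher and 1, Alb, lower in exposed dishes at an unadjusted p under 0.05 (limma). At that p 12% of all tested genes were higher and 3.65% lower. The bile duct list summed to 1203 to 1291 TPM in control and 1218 to 1339 TPM in exposed dishes, most of it Krt19. Control means were 1153 (Krt19), 70.4 (Krt7), 30.8 (Sox9) and 0.07 TPM (Epcam), so the markers of this list disagreed. What part these markers had in the results was not tested. Macrophage, stellate or fibroblast, endothelial and lymphocyte markers summed to at most 2.24 TPM per list in any dish, and Adgre1, Clec4f, Lrat and Cdh5 were listed at 0. In bulk RNA, fewer cells of a kind and less RNA per cell cannot be told apart. Transcripts of the mitochondrial genome took 8.94% ± 0.34 (SD, n = 4) of the TPM in control and 7.04% ± 0.76 (SD, n = 4) in exposed dishes (two-sided exact permutation p = 0.0286). Since TPM add up to a fixed total, results are given also after median-of-ratios scaling. This scaling divides each dish by the median ratio of its genes to their mean over dishes. With it Krt8 and Krt18 no longer had an unadjusted p under 0.05 (limma) and overlapped between conditions. Alb then had an unadjusted p of 0.00566 (limma) and a log2 fold change of -0.18. Its highest exposed dish was then under its lowest control dish. Of all tested genes 6.23% were lower at an unadjusted p under 0.05 after the scaling, and 3.82% were split in that way.

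The cycle and pyruvate entry genes covered a wide range of levels. Mdh2, mitochondrial malate dehydrogenase, was highest at a mean of 417 TPM, followed by cytosolic malic enzyme Me1 at 307 TPM and cytosolic malate dehydrogenase Mdh1 at 259 TPM. Enzymes of the cycle and the catalytic subunits of the dehydrogenase complexes lay between these and Pdhx at 39.3 TPM. The switches were far lower: no kinase or phosphatase had a mean above 18.5 TPM, and pyruvate carboxylase (Pcx) had 7.50 TPM. The spread between dishes was small, with a median coefficient of variation of 2.74% in control and 3.83% in exposed dishes, and it was largest for Mpc2 in control (6.94%) and for the kinase gene Pdk2 in exposed dishes (12.6%).

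**Figure D1:**
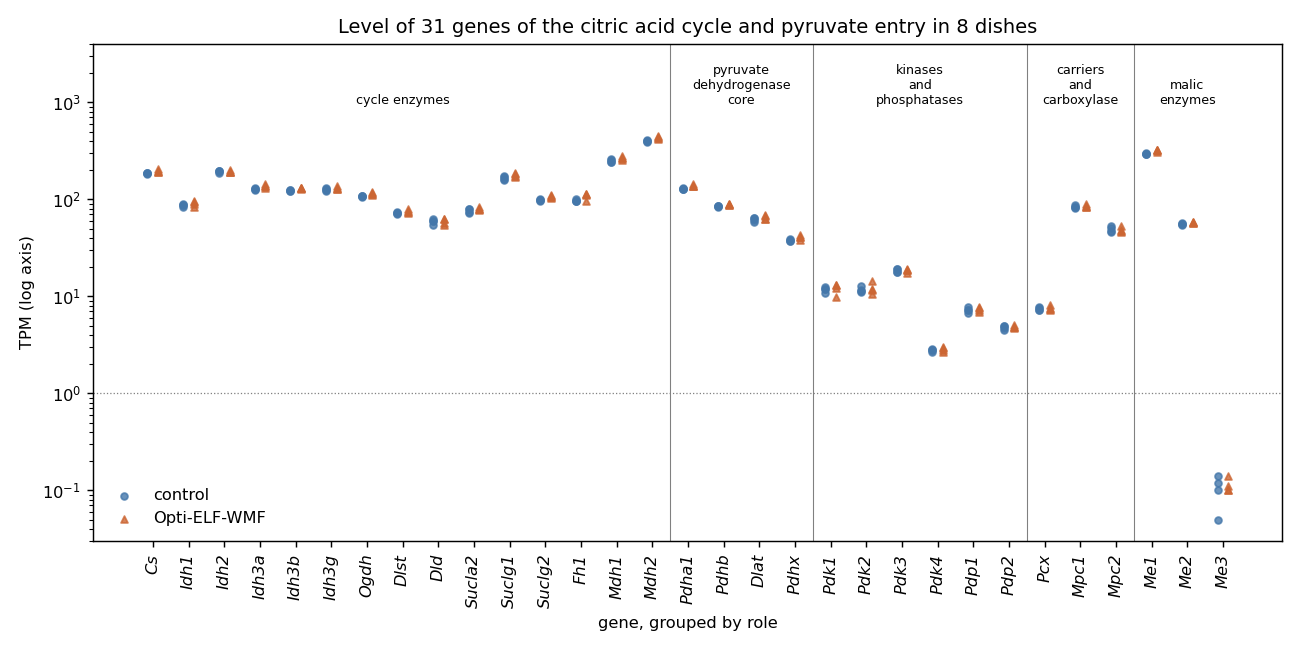
TPM (log axis) of the 31 genes in the 4 control dishes and the 4 Opti-ELF-WMF dishes, grouped by role, with 1 point per dish. Mdh2 and Me1 were highest, the kinases, phosphatases and Pcx lay below 20 TPM, and Me3 lay below 0.15 TPM in every dish.

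The question was whether 1 h of exposure altered the levels of these transcripts. Most of the abundant ones were slightly higher in exposed dishes, by at most 11.8% between group means (Fh1), and none passed the test across all genes (0 of 30 with an adjusted p under 0.05 by limma with Benjamini-Hochberg adjustment, 0% of all tested genes). Before adjustment 1894 of all tested genes had a p under 0.05 (limma). So did 12 of the 30 genes, all higher in exposed dishes, beside 12% of all tested genes higher and 3.65% lower. In 9 genes every exposed dish lay above every control dish, beside 8.01% of all tested genes, and in 0 genes every exposed dish lay below, beside 1.86%. The median log2 fold change was 0.06 over the 30 genes and 0.03 over all tested genes, and the sign was positive in 29 of 30 genes and in 63.7% of all genes.

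Scaling changed these counts. After median-of-ratios scaling the median over all tested genes was -0.0013 and that over the 30 genes 0.03. Of the 30 genes 6 had an unadjusted p under 0.05, namely Fh1, Mdh2, Me1, Ogdh, Pdha1 and Suclg2, all higher, beside 5.55% of all genes higher and 6.23% lower. In 4 of them, Mdh2, Ogdh, Pdha1 and Suclg2, every exposed dish still lay above every control dish, beside 3.8% of all genes, and in 0 genes every exposed dish lay below, beside 3.82%. Further, the sign was positive in 23 of 30 genes against 49.2% of all genes. When TPM were instead rescaled without the mitochondrial transcripts, 7 genes had a higher level with an unadjusted p under 0.05, beside 5.72% of all genes, and 3 (Mdh2, Pdha1 and Suclg2) were separated upwards, beside 3.83% of all genes. The counts also moved with level. Among the 23 genes with a mean of at least 30 TPM, a limit chosen after the data were seen, 9 were separated upwards. This was so for 15.3% of the 4976 tested genes at or above that limit, which were not matched to the 23 in level. After the scaling 4 of the 23 were separated upwards, against 7.11%. The median log2 fold change was 0.071 for the 23 and 0.045 for the 4976 genes, or 0.042 and 0.016 after the scaling. Of the 4976 genes 20.9% had a fold change of 0 or below on the log2 scale, and 38.3% after the scaling.

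**Figure D2:**
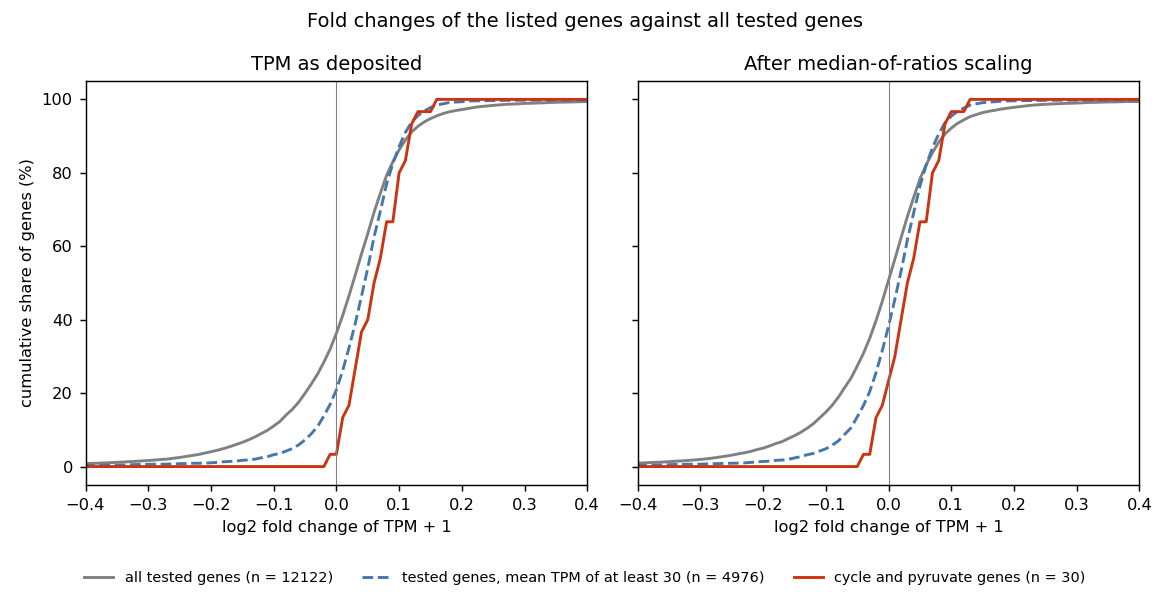
Cumulative share (%) of genes at or below each log2 fold change, Opti-ELF-WMF over control, for all tested genes, for abundant genes and for the 30 genes, with TPM as deposited and after median-of-ratios scaling. The curve of the 30 genes lies right of that of all genes up to 0.11 and left of it from 0.12. After scaling these limits are 0.08 and 0.09. Its median was 0.06 beside 0.03 for all genes before scaling and 0.03 beside -0.0013 after it. Abundant genes had medians of 0.045 and 0.016.

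Mdh2, Ogdh, Pdha1 and Suclg2 were separated between conditions with deposited TPM and after median-of-ratios scaling. Ogdh overlapped after upper-quartile scaling and when rescaled without mitochondrial transcripts, while the other three were separated there too. Mdh2 makes oxaloacetate from malate in the matrix. Its control dishes held 401.0, 405.1, 392.7 and 403.0 TPM and its exposed dishes 436.6, 448.6, 428.3 and 419.2 TPM. The groups did not overlap, and the log2 fold change was 0.11 ± 0.026 (SE) with an adjusted p of 0.122 (limma), or 0.08 with an adjusted p of 0.266 after scaling. Ogdh encodes the E1 subunit of the oxoglutarate dehydrogenase complex, a controlled step of the cycle. It lay at 107.3, 105.5, 109.4 and 108.6 TPM in control and at 113.8, 118.8, 116.6 and 111.4 TPM in exposed dishes. These groups did not overlap either, and the log2 fold change was 0.10 ± 0.028 (SE) with an adjusted p of 0.162 (limma). Pdha1 encodes the E1 alpha subunit of pyruvate dehydrogenase, which carries the sites that PDK kinases phosphorylate. The 4 control dishes were close together at 129.9, 128.0, 127.3 and 128.9 TPM, and the exposed dishes held 137.2, 144.5, 137.8 and 137.7 TPM, the second of them apart from the other three. Its log2 fold change was 0.12 ± 0.025 (SE), and with an adjusted p of 0.122 (limma) it shared the lowest value among the 30 genes with Mdh2 and Suclg2. Suclg2, the GTP-forming beta subunit of succinyl-CoA ligase, had 100.6, 97.9, 95.8 and 99.5 TPM in control and 105.8, 110.4, 108.8 and 104.2 TPM in exposed dishes. Again no dish crossed between the groups, and the log2 fold change was 0.12 ± 0.028 (SE) with an adjusted p of 0.122 (limma).

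**Figure D3:**
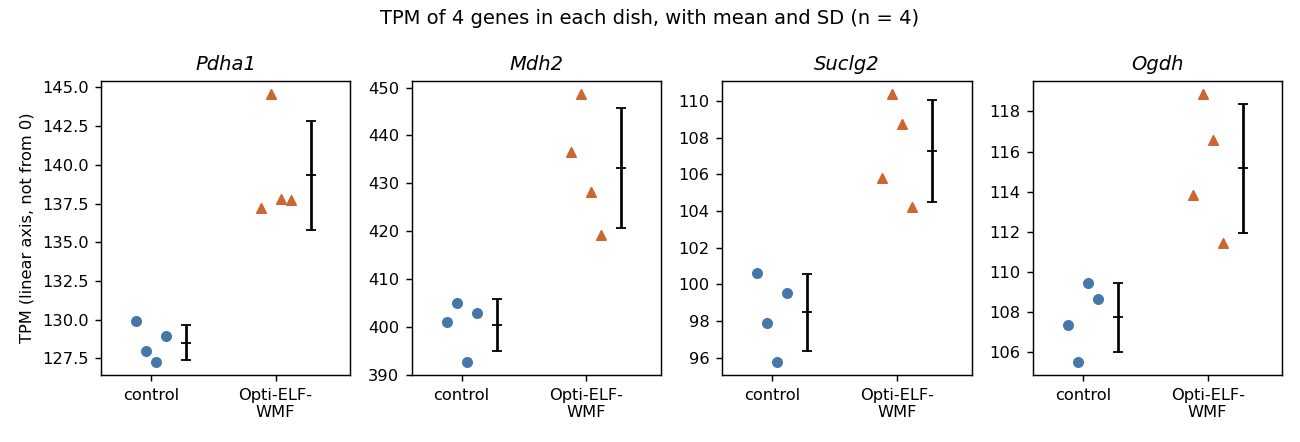
TPM per dish (points) of Mdh2, Ogdh, Pdha1 and Suclg2 with group means and SD (n = 4 dishes per condition), in control and Opti-ELF-WMF dishes. In each gene the lowest exposed dish lies above the highest control dish, at 419 against 405 TPM for Mdh2 and 104 against 101 TPM for Suclg2.

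Sequence upstream of these 4 genes is shown because they alone of the 30 genes were separated both with deposited TPM and after median-of-ratios scaling. The sequences are RefSeq promoter windows of GRCm38.p6, cut where a gene model begins, and run 5′ to 3′ on the strand of the gene, with capitals marking matches to the motifs searched. Mdh2 lies on the plus strand (chr5:135778399-135778479), as does Ogdh (chr11:6291347-6291596, the first of its 6 listed starts), and Pdha1 (chrX:160138431-160138680) and Suclg2 (chr6:95718847-95719096) lie on the minus strand.
Mdh2: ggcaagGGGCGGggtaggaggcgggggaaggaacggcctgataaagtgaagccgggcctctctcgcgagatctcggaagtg
Ogdh: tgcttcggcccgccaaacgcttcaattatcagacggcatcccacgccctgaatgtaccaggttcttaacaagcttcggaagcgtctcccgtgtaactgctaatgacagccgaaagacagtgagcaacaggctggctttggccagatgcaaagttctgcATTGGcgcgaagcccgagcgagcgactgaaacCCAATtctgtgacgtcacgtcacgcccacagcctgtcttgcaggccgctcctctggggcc
Pdha1: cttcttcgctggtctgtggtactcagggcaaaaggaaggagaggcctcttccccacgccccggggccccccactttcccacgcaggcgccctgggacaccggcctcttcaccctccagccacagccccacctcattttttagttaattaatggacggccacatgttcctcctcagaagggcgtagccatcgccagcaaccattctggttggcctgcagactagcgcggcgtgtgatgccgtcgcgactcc
Suclg2: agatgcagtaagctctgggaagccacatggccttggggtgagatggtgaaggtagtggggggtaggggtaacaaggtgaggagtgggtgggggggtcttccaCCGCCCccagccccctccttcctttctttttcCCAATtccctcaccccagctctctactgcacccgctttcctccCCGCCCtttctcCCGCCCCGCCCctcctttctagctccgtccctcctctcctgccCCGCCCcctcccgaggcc
The Suclg2 stretch held 5 GC boxes, 2 of which overlap, and a CCAAT box, Ogdh a pair of CCAAT boxes on opposite strands, Mdh2 a GC box, and the Pdha1 stretch held no match to any motif searched. Windows of 300 bases were searched for 28 of the 31 genes, with 39 starts. None was searched for Idh3a, Me2 and Pdp1, and whether such windows exist for these genes is not reported here. Both strands were searched. The GC box GGGCGG, bound by Sp1 and related factors, was in 25 of the 39 windows and in 35.7% of all 32851 windows, and the CCAAT box was in 25 windows and in 37.4% of all. The E-box CACGTG was in 6 windows (7.15% of all) and the ETS motif CCGGAAG in 4 (8.86% of all). The estrogen-related receptor half-site AAGGTCA was in 1, a window of Ogdh (4.72% of all), the YY1 motif AAGATGGC in 1, that of Idh3g (2.75% of all), and the palindromic core motif of NRF1 in 0 (0.971% of all). Windows of several starts of a gene can overlap, and a match is only a match of letters.

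Among the other enzymes of the cycle, 3 more were separated with the deposited TPM and overlapped after scaling. Citrate synthase (Cs), which starts the cycle, held 188.2, 187.7, 186.6 and 183.9 TPM in control and 191.5, 204.8, 195.5 and 192.6 TPM in exposed dishes. For Idh3a, the catalytic subunit of NAD-dependent isocitrate dehydrogenase, the control values were 123.9, 127.5, 130.3 and 128.0 TPM and the exposed values 144.9, 136.4, 138.8 and 130.7 TPM, so that the fourth exposed dish was only just above the third control dish. Idh3b, the beta subunit of that enzyme, lay at 122.3, 125.2, 121.8 and 124.1 TPM and 127.4, 131.0, 130.1 and 129.6 TPM. Their log2 fold changes were 0.07 ± 0.026 (SE) for Cs, 0.11 ± 0.034 (SE) for Idh3a and 0.07 ± 0.023 (SE) for Idh3b, with adjusted p of 0.237, 0.172 and 0.188 (limma). Idh3b overlaps Nop56 (331 TPM) on the opposite strand, and the strand setting of the counting was not stated, so its value is uncertain.

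Fumarase, Fh1, had the largest fold change of the 30 genes and the highest coefficient of variation among the cycle enzymes in exposed dishes. Control dishes held 97.1, 95.4, 96.4 and 100.3 TPM and exposed dishes 110.6, 113.9, 113.6 and 96.7 TPM, 3 of which were far above the controls while the fourth lay among them. The log2 fold change was 0.16 ± 0.050 (SE) with an adjusted p of 0.187 (limma), and without the fourth exposed dish it was 0.21 with an adjusted p of 0.0754, the smallest for any of the 30 genes in any setting tried. Mdh1, which works with the malate-aspartate shuttle in the cytosol, had 241.0, 256.2, 260.5 and 245.6 TPM in control and 268.7, 277.8, 267.1 and 255.1 TPM in exposed dishes. Suclg1, the alpha subunit shared by both forms of succinyl-CoA ligase, had 172.8, 161.0, 159.5 and 168.3 TPM and 180.6, 188.3, 170.0 and 173.6 TPM. In both genes 1 exposed dish lay below the highest control dish, and the log2 fold changes of 0.09 ± 0.034 (SE) and 0.11 ± 0.039 (SE) had adjusted p of 0.239 and 0.226 (limma).

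The remaining cycle enzymes overlapped between conditions. Dld, the E3 subunit shared by the pyruvate and oxoglutarate dehydrogenase complexes and the lowest of the cycle genes, held 62.8, 55.0, 59.4 and 60.0 TPM in control and 57.6, 63.4, 62.5 and 55.0 TPM in exposed dishes. Its log2 fold change was 0.007 with a 95% interval of -0.11 to 0.13. Over all 8 dishes Idh1, the cytosolic NADP enzyme, ranged from 83.8 to 95.3 TPM, Idh2, its mitochondrial counterpart, from 185.3 to 200.8 TPM, and Idh3g, a regulatory subunit of the NAD enzyme, from 121.7 to 136.2 TPM. Dlst, the E2 subunit of the oxoglutarate complex, ranged from 71.2 to 79.5 TPM and Sucla2, the ATP-forming beta subunit of succinyl-CoA ligase, from 72.3 to 83.0 TPM. Of the 15 cycle genes 9 had an unadjusted p under 0.05 and 6 were separated, beside 12% and 8.01% of all tested genes, with a median log2 fold change of 0.07. After scaling the median was 0.04 and 3 were separated, beside 3.8% of all tested genes.

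**Figure D4:**
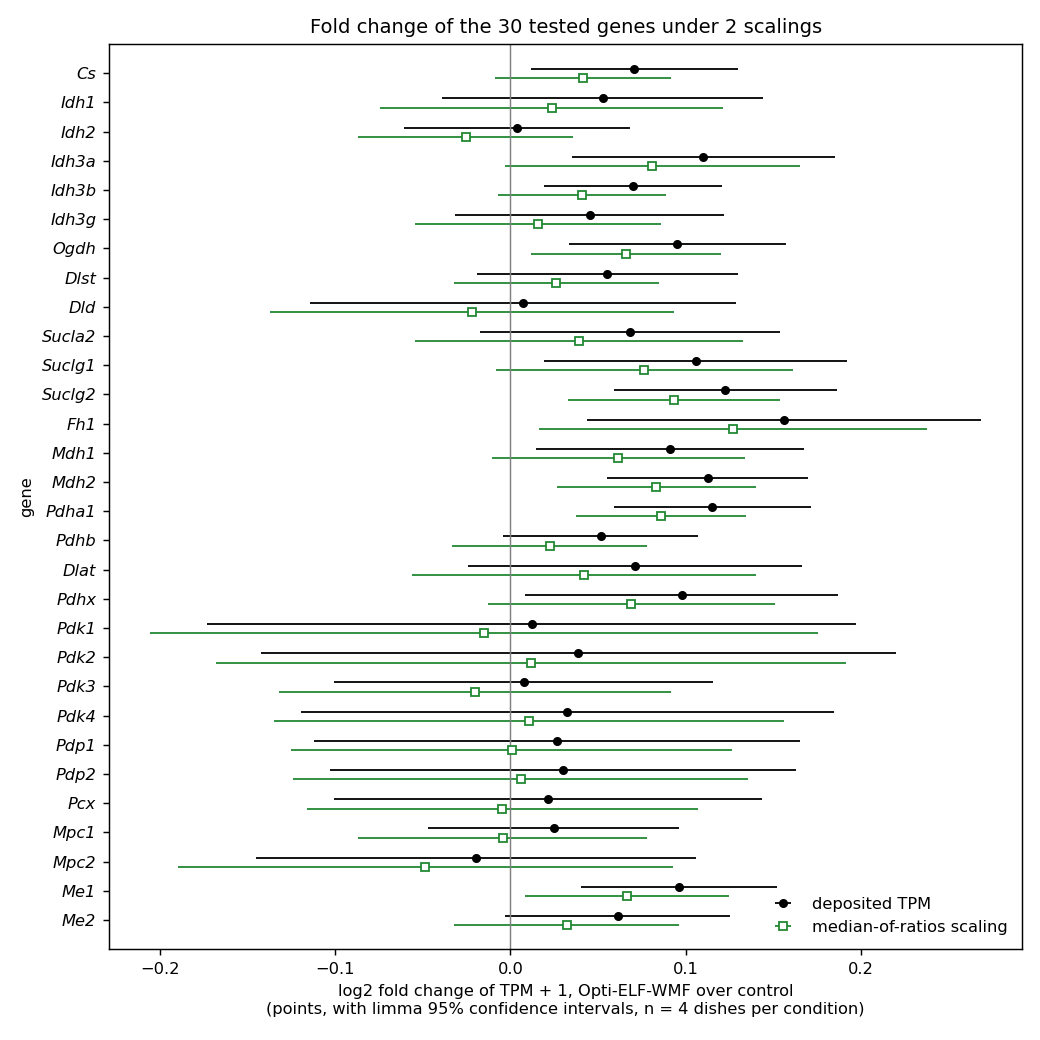
log2 fold change of TPM + 1, Opti-ELF-WMF over control (n = 4 dishes per condition), of the 30 tested genes in order of role, with 95% intervals from limma, for TPM as deposited and after median-of-ratios scaling. Fh1 had the largest value at 0.16 and Mpc2 the only negative one with deposited TPM at -0.02, and the scaled values lie about 0.03 lower.

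In the pyruvate dehydrogenase complex, Pdhb, the E1 beta subunit, stood beside Pdha1 with 86.3, 84.2, 85.5 and 84.8 TPM in control and 87.4, 88.8, 90.4 and 86.7 TPM in exposed dishes. The dishes did not overlap, but the log2 fold change of 0.05 ± 0.025 (SE) was small, with an adjusted p of 0.358 (limma), and the groups overlapped after scaling. Pdhx, the protein that binds E3 to the complex core, held 38.7, 37.9, 37.5 and 37.5 TPM in control and 37.8, 41.2, 40.7 and 42.9 TPM in exposed dishes, the first of which lay among the controls. Its log2 fold change was 0.10 ± 0.040 (SE) with an adjusted p of 0.275 (limma). Dlat, the E2 acetyltransferase, ranged from 58.6 to 68.5 TPM and overlapped between conditions.

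None of the kinases and phosphatases that switch the complex differed beyond the spread between dishes. Pdk3, the most abundant kinase gene here, held 19.3, 19.0, 17.7 and 17.7 TPM in control and 18.9, 18.8, 19.1 and 17.3 TPM in exposed dishes. Pdk1, a target of hypoxia signalling, held 12.6, 10.9, 12 and 12 TPM and 13.0, 12.1, 13.0 and 9.96 TPM, and Pdk2, a widely expressed form, 11.1, 11.3, 11.7 and 12.7 TPM and 11.7, 11.8, 14.2 and 10.7 TPM. The third exposed dish was the highest and the fourth the lowest of all for Pdk2, while for Pdk1 the fourth exposed dish was also the lowest. Pdk4, which fasting and fatty acids induce in liver, was lowest of the kinases at 2.84, 2.82, 2.77 and 2.68 TPM in control and 2.69, 2.93, 2.82 and 3.02 TPM in exposed dishes. The 95% intervals of the log2 fold change were -0.17 to 0.20 for Pdk1, -0.14 to 0.22 for Pdk2, -0.10 to 0.12 for Pdk3 and -0.12 to 0.18 for Pdk4. The signs of Pdk1 and Pdk3 turned negative after scaling.

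The phosphatases behaved likewise. Pdp1, which is sensitive to calcium, had 6.70, 7.32, 7.79 and 7.18 TPM in control and 6.87, 7.78, 7.67 and 7.28 TPM in exposed dishes, and Pdp2, which is not, had 5.00, 4.49, 4.92 and 4.67 TPM and 4.82, 4.87, 4.77 and 5.10 TPM. The intervals were -0.11 to 0.17 for Pdp1 and -0.10 to 0.16 for Pdp2 (95%, log2 scale). Kinase transcripts summed to 44.8 ± 0.80 TPM in control and 45.5 ± 3.44 TPM in exposed dishes (SD, n = 4), and the share of each kinase in that sum overlapped between conditions, at 26.5%, 26.1%, 41.2% and 6.20% for Pdk1 to Pdk4 in control and 26.4%, 26.5%, 40.8% and 6.34% in exposed dishes.

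The carrier and carboxylase genes showed no difference beyond the spread either. Mpc1 held 84.4, 83.3, 80.6 and 86.8 TPM in control and 88.8, 83.8, 84.5 and 83.8 TPM in exposed dishes. A processed copy, Mpc1-ps, whose sequence is 99.7% identical over its length, was listed at a mean of 32.0 TPM, so the split between them is uncertain, and their sum overlapped between conditions (114 ± 8.38 against 119 ± 3.11 TPM, SD, n = 4). Mpc2, the other subunit, ranged from 46.0 to 53.5 TPM and had the only negative fold change, -0.02 ± 0.056 (SE). Pcx, which makes oxaloacetate for gluconeogenesis, held 7.78, 7.23, 7.22 and 7.52 TPM and 7.24, 8.11, 7.42 and 7.50 TPM. The 95% interval of its log2 fold change was -0.10 to 0.14, and the signs of Mpc1 and Pcx turned negative after scaling.

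Of the malic enzymes, which turn malate into pyruvate, Me1 supplies NADPH in the cytosol for lipid synthesis. Its control dishes held 290.8, 296.5, 301.4 and 296.8 TPM and its exposed dishes 320.0, 320.1, 322.6 and 304.8 TPM, separate but with the fourth exposed dish close to the controls. The log2 fold change was 0.10 ± 0.025 (SE) with an adjusted p of 0.139 (limma), and the groups overlapped after scaling. Reads of Me1 may be shared with near-identical copies, of which Gm7049 (98.4% identical) was listed at a mean of 19.8 TPM and Gm7329 (99.0% identical) at 5.33 TPM. A further copy, Gm48795 (98.7% identical, on the opposite strand), was listed at 0.14 TPM. With these copies added, Me1 was at 318 ± 10.2 TPM in control and 346 ± 9.87 TPM in exposed dishes (SD, n = 4). The groups then overlapped, with 333 TPM in the third control against 331 TPM in the fourth exposed dish (two-sided exact permutation p = 0.0571, where the smallest possible is 0.0286). Me2, the mitochondrial NAD-dependent form, ranged from 53.9 to 58.7 TPM and overlapped. Me3, the mitochondrial NADP form, was near 0, at 0.14, 0.05, 0.12 and 0.10 TPM in control and 0.10, 0.14, 0.10 and 0.11 TPM in exposed dishes.

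Within each set of paired forms or subunits, the share of every gene overlapped between conditions. Suclg2 made up 56.3% ± 0.59 of the succinyl-CoA ligase beta subunit transcripts in control and 57.3% ± 0.83 in exposed dishes (SD, n = 4). Idh2 took 69.0% and 68.2% of the NADP isocitrate dehydrogenase pair, Mdh2 61.5% and 61.9% of the malate dehydrogenases, Mpc1 62.8% and 63.6% of the carrier subunits, and Me1 84.2% and 84.5% of the malic enzymes. The 3 subunits of NAD-dependent isocitrate dehydrogenase were close to equal, between 31.8% and 36.3% each in any dish.

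The exposed dishes differed among themselves in how far the 30 genes lay from their control means. The median deviation on the log2 scale was 0.04, 0.09, 0.08 and 0.03 in exposed dishes 1 to 4, where the median over all tested genes was -0.002, 0.06, 0.02 and 0.03. The second exposed dish was the highest exposed dish in 16 of the 30 genes, the fourth was the lowest in 17 and the first in 10. In the control dishes the median deviation stayed between -0.01 and 0.02.

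**Figure D5:**
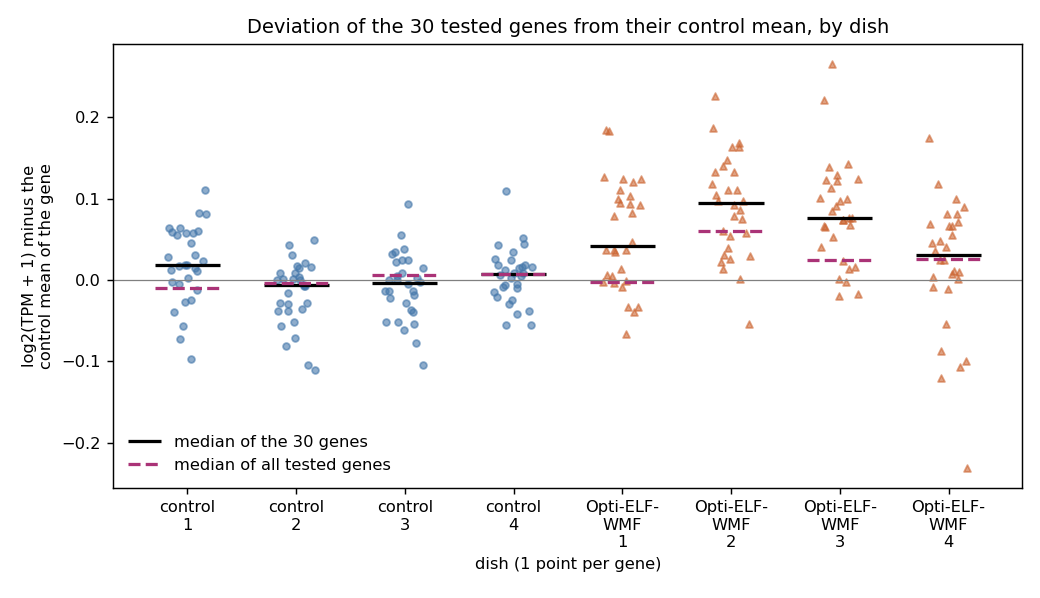
Deviation of each of the 30 tested genes from its control mean, log2(TPM + 1), by dish (1 point per gene), with the median of the 30 genes and of all tested genes. Exposed dishes 2 and 3 lie highest with medians of 0.09 and 0.08, and exposed dish 4 has a median of 0.03.

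Succinate dehydrogenase, the cycle enzyme that is also part of the respiratory chain, is not among the 31 genes. Of its 4 subunit genes 3 had an unadjusted p under 0.05, all higher and all separated, where 12% of all tested genes were higher at that p and 8.01% were separated upwards, and 0 passed adjustment (limma). After median-of-ratios scaling Sdhc and Sdhb still had such a p and were separated, and Sdhd did neither. Of all tested genes 5.55% were then higher at that p and 3.8% were separated upwards. Sdhc, a membrane anchor of succinate dehydrogenase, was at 89.1 ± 4.17 TPM in control and 103 ± 5.60 TPM in exposed dishes, Sdhb at 121 ± 3.17 and 130 ± 4.16 TPM, and Sdhd at 206 ± 4.77 and 218 ± 5.71 TPM (SD, n = 4). The median log2 fold change of the 4 was 0.09, or 0.06 after scaling.

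Genes of lipoylation and partner subunits showed 0 of 7 with an unadjusted p under 0.05, and Ogdhl was separated with the deposited TPM but overlapped after scaling. Of all tested genes 12% were higher at that p and 8.01% were separated upwards. Of 15 genes at the exits and entries of the cycle, 14 identifiers were tested and 5 had an unadjusted p under 0.05, all higher, where this was so for 12% of all tested genes. Pyruvate kinase Pkm lay at 1929 ± 19.9 and 2101 ± 55.6 TPM, lactate dehydrogenase Ldha at 1079 ± 18.3 and 1137 ± 23.2 TPM, glutamate dehydrogenase Glud1 at 407 ± 6.11 and 425 ± 8.10 TPM and aspartate aminotransferase Got2 at 156 ± 3.35 and 169 ± 4.62 TPM (SD, n = 4), and each of these 4 was separated, beside 8.01% of all tested genes. After scaling Ldha and Glud1 no longer had an unadjusted p under 0.05 and Glud1 overlapped, while Pkm and Got2 kept both. Of all tested genes 5.55% were then higher at that p and 3.8% were separated upwards. One of the 2 identifiers of the transhydrogenase Nnt was at 9.74 ± 1.11 and 12.2 ± 1.96 TPM, and the other ranged from 28.7 to 32.3 TPM in control and from 27.6 to 29.6 TPM in exposed dishes, which overlapped. After scaling these 2 went in opposite directions, with log2 fold changes of 0.26 and -0.09. Each then had an unadjusted p under 0.05 (limma), beside 5.55% of all tested genes higher and 6.23% lower, and the dishes of both overlapped. Pck1, the cytosolic gluconeogenic carboxykinase, and Ldhb were listed at 0 in all dishes. Of 5 carriers of cycle intermediates, Slc25a13 alone had an unadjusted p under 0.05 (33.0 ± 0.70 and 35.1 ± 1.52 TPM), and none was separated. Of 10 transcription factors linked to these genes 7 were tested, and Myc (log2 fold change 0.14, separated) and Hif1a (0.08) had an unadjusted p under 0.05. The shares to set beside the carriers and these factors are again 12% of all tested genes higher at that p and 8.01% separated upwards. After scaling Myc had such a p and was separated, beside 5.55% and 3.8% of all tested genes, and neither Hif1a nor Slc25a13 had one. None of these lists had a gene with an adjusted p under 0.05.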

How the data were processed

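RNA-seq of 4 control and 4 exposed dishes of AML12 cells was analysed from the TPM values per gene and sample that the authors deposited. The submitters' processing notes name Trimmomatic 0.39, STAR 2.7.4a, RSEM 1.3.3 and mm10. The annotation and strand setting are not given in the sources used here, and TPM keeps no read depth, so no counting interval was computed. Samples were grouped by their labels. Genes with at least 1 TPM in at least 4 of 8 samples were tested as log2(TPM + 1), which understates changes of low genes, with limma 3.58.1 (R 4.3.3, lmFit and eBayes with a variance trend), with p-values adjusted by Benjamini-Hochberg over all 12122 genes at 0.05. The procedure was tested on simulated data. The 31 genes and the other lists were chosen with earlier results of these data known. Values per dish are given for genes whose dishes do not overlap, genes with an unadjusted p under 0.05, the kinases and phosphatases, and the highest and lowest gene of each role. Not every gene of the other lists is reported here. Copies were genes at least 95% identical over at least 80% of their length in GENCODE transcripts. Alternatives were other scalings, pseudocounts of 0.1 and 0.5, other filters, no variance trend, a replicate block and leaving out each dish. Same-numbered dishes did not deviate together, with correlations between -0.04 and 0.03, so the numbers were not used for pairing.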

Additional observations from a re-analysis of the deposited data

Results flagged for a closer look

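In 5 of 62 groups of 4 dishes, 1 dish lay apart from the other three by Dixon's criterion at its 95% limit, where chance gives about 3.1. In the second exposed dish Idh2 was at 200.78 TPM, with the other exposed dishes between 190.74 and 192.29 TPM, and Pdha1 was at 144.54 TPM, with the others between 137.18 and 137.78 TPM. In the fourth exposed dish Pdk3 was at 17.27 TPM, with the others between 18.83 and 19.14 TPM, and Me1 was at 304.8 TPM, with the others between 319.99 and 322.59 TPM. Mpc1 was at 88.76 TPM in the first exposed dish, with the others between 83.8 and 84.51 TPM. With deposited TPM, Pdha1 and Me1 were separated from the control dishes with these dishes included. The dish that lay apart was the highest for Pdha1 and the lowest exposed dish for Me1, and Me1 overlapped after median-of-ratios scaling.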

How the results depend on the processing

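Each value was recomputed under 9 other settings and without each of the 8 dishes. The number of genes in all with an adjusted p under 0.05 was 1 instead of 0 with a filter of 1 TPM in every sample, after median-of-ratios scaling, after upper-quartile scaling and without the variance trend (1110028F11Rik each time), and 0 to 2 without a dish, with 2 without control dish 2 (Fgfr3 and Gm15446) and 1 without control dish 3 (Gm7329, a copy of Me1). These genes are named after their values were seen. Among the 30 genes it was 0 in every setting. The number of the 30 genes with an unadjusted p under 0.05, 12 as reported, was 6 after median-of-ratios scaling, 6 after upper-quartile scaling and 7 when rescaled without mitochondrial genes, and 8 to 12 without a dish. The number whose dishes did not overlap, 9 as reported, was 4, 3 and 3 under these scalings and 9 to 13 without a dish. Leaving out a dish cannot make separated groups overlap, so the latter count could not fall below 9. The median log2 fold change was 0.029, 0.025 and 0.029 under these scalings, where the median of all genes moved to -0.0013, -0.0053 and -0.0015, and 0.051 to 0.071 without a dish. The share of unadjusted calls that were higher was 76.6% as reported, 47.1% after median-of-ratios scaling, 42.3% after upper-quartile scaling and 50.7% without mitochondrial genes.

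Of 510 values of single genes, 473 kept their direction and side of the threshold and 37, in 9 genes, changed sign. Median-of-ratios scaling gave log2 fold changes of -0.0255 for Idh2, -0.022 for Dld, -0.015 for Pdk1, -0.0204 for Pdk3, -0.0045 for Pcx and -0.0044 for Mpc1. Rescaling without mitochondrial genes gave -0.0259 for Idh2, -0.0224 for Dld, -0.0155 for Pdk1, -0.0208 for Pdk3, -0.0048 for Pcx and -0.0048 for Mpc1. Upper-quartile scaling gave -0.0299 for Idh2, -0.0262 for Dld, -0.019 for Pdk1, -0.0245 for Pdk3, -0.0031 for Pdp1, -0.0083 for Pcx and -0.0087 for Mpc1. Without a dish the ranges were -0.0168 to 0.0152 for Idh2, -0.0279 to 0.0448 for Dld, -0.0254 to 0.093 for Pdk1, -0.0367 to 0.092 for Pdk2, -0.0108 to 0.0393 for Pdk3, -0.0058 to 0.0579 for Pdp1, -0.0083 to 0.0409 for Pcx and -0.057 to 0.0172 for Mpc2. None of these 9 genes had an adjusted p under 0.05 in any setting, and the cause of the changes was not tested.

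With the replicate number as a block, 0 genes in all had an adjusted p under 0.05 (limma), and 11 of the 30 genes had an unadjusted p under 0.05. The numbers did not pair the dishes. Read depth is unknown, and with 4 dishes per condition from 1 batch of cells, differences of a few percent cannot be resolved for the low kinases, phosphatases and carboxylase.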

Other observations

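The Me1 copy Gm7329 was listed at 0 in 3 control dishes and at 11.86 TPM in the third, while the exposed dishes lay between 5.19 and 11.12 TPM. The copy Gm7049 was higher in every exposed dish than in every control dish, beside 8.01% of all tested genes. Its means were 18.5 TPM in control and 21.0 TPM in exposed dishes, and its separation after scaling is not reported here. Both copies share nearly all of their sequence with Me1, and whether these values come from reads of Me1 was not tested.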
